A study of Mus musculus with 52 samples.

Results

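The genes of cholesterol synthesis and of its sterol sensor were followed in the mouse suprachiasmatic nucleus (SCN), the clock nucleus of the hypothalamus, after a light pulse and in mice that lack the light-induced transcription factor Npas4. The list holds 27 genes, taken by name from the raw count tables of both experiments with at least 10 counts in at least 2 libraries. All 27 were found and passed that minimum, among 14963 of 21999 genes in the light-pulse table and 15170 of 21999 in the Npas4 table. They are 7 enzymes of the mevalonate steps, 3 from farnesyl diphosphate to lanosterol, 8 from lanosterol to cholesterol, 5 genes of the SREBP system, 1 sterol transporter and 3 enzymes of fatty acid synthesis. Messenger RNA was sequenced from male mice 11 to 12 weeks of age, and each library pooled 6 pairs of SCN. In the light-pulse experiment, 16 libraries of wild-type mice covered 6 groups. Dark libraries were taken at circadian time (CT) 17, 4 in number, and at CT 23, 2 in number. Light began at CT 17 and lasted 0.5 h in 4 libraries and 1 h, 3 h or 6 h in 2 libraries each. In the second experiment, Npas4 null mice (Npas4-/-, here KO) and wild-type littermates (WT) were kept in darkness or given 1 h of light at CT 17, with 3 libraries in each of the KO light, KO dark, WT light and WT dark groups. The labels name a null allele and no driver that would limit it to the SCN, and they give no strain for any group. Histone marks were measured by ChIP-seq in wild-type SCN, 2 pairs for each list of peaks, after 1 h of light or in darkness.

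Cholesterol is built from acetyl-CoA through mevalonate, squalene and lanosterol. The genes of these steps are switched on together by SREBP2, the product of Srebf2. When sterols are plentiful, SREBP2 and its relative SREBP1 are held in the endoplasmic reticulum by SCAP and the INSIG proteins. When sterols fall they move to the Golgi, are cut, and act in the nucleus, where INSIG1 and the synthesis enzymes are among their targets. The brain makes its own cholesterol, since lipoproteins of the blood do not cross the blood-brain barrier, and in the adult brain astrocytes and oligodendrocytes are major producers.

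The promoters of 5 genes are shown because their genes were called in the tests below: the upstream 250 bases of Insig1 and Cyp51, called after light in the light-pulse experiment, and of Hmgcs1, Idi1 and Msmo1, called after light in the Npas4 experiment once libraries of the same number were paired. Pmvk, also called, is not shown because it has 2 annotated starts, and Fdft1 has no entry in the table used. They are RefSeq sequences of assembly GRCm38.p6, written 5′ to 3′ on the strand of the gene and ending at the base before the annotated start. Capitals mark 3 motifs, searched on both strands: the sterol regulatory element TCACCCCAC, the E-box CACGTG and the NF-Y box CCAAT, which reads ATTGG on the other strand.
Insig1 (chr5:28071162-28071411, + strand): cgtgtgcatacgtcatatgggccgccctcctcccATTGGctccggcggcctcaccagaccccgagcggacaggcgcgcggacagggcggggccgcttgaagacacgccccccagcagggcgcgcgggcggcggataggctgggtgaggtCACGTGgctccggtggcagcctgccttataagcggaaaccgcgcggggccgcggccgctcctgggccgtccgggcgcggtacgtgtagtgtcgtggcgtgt
Cyp51 (chr5:4104698-4104947, - strand): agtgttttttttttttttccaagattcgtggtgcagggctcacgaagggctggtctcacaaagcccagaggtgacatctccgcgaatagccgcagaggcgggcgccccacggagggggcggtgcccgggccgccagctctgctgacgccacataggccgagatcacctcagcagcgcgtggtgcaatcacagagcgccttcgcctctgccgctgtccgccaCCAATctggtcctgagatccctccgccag
Hmgcs1 (chr13:119690101-119690350, + strand): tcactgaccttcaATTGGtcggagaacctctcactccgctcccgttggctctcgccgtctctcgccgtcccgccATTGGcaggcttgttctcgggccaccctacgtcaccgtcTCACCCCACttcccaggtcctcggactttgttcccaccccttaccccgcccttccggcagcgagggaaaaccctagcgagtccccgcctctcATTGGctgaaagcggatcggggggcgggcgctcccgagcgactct
Idi1 (chr13:8885356-8885605, + strand): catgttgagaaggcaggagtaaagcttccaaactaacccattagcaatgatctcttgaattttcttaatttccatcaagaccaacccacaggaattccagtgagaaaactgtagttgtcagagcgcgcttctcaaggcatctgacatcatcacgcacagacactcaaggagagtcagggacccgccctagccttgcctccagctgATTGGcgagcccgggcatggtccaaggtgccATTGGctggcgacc
Msmo1 (chr8:64733579-64733828, - strand): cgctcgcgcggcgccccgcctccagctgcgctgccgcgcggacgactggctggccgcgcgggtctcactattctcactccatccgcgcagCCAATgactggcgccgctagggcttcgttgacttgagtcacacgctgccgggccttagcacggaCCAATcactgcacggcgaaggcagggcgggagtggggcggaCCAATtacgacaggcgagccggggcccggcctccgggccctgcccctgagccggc
The Hmgcs1 promoter, the textbook SREBP target promoter, held the sterol regulatory element 137 bases before the start, with NF-Y boxes around it. Insig1 held an E-box 101 bases before the start and a single NF-Y box, and Cyp51 a single NF-Y box 29 bases before the start. Idi1 held 2 NF-Y boxes, 45 and 14 bases before the start, and Msmo1 held 3, at 160, 96 and 55 bases before it.

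Over windows of 300 bases that run to 50 bases after each start, 21 of the 27 genes had 29 annotated starts in the RefSeq table. The sterol regulatory element in the spelling above was in 1 of these 29 windows, or 3.45%, against 0.576% of all 19632 windows. With the fifth base left free (TCACNCCAC) it was again in 1 window, against 1.22% of all windows. The NF-Y box was in 20 windows, or 69%, against 38% of all windows, and these belonged to 19 genes. The E-box was in 6 windows, or 20.7%, against 8% of all, those of Dhcr7, Hsd17b7, Insig1, Sc5d and Scap. The GC box GGGCGG was in 23 windows, or 79.3%, against 47.9% of all. These are counts of letters and not of bound factors, and several windows belong to the same gene.

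The total counts were 12477382 to 15369985 for 12 of the light-pulse libraries, whose names carry no suffix s, 27413860 to 30149286 for the 4 with it, and 26638939 to 32097975 for the Npas4 libraries. The labels do not say what the suffix means, and principal component 1 of this experiment (31.9% of the variance) set those 4 and 1 of the 0.5 h light libraries apart from the other 11. The light-response gene Fos had a log2 fold change of 4.97 at 0.5 h, 3.15 in KO mice and 5.03 in WT mice, all called. Npas4 itself had 4.55, 7.63 and 5.19 CPM (counts scaled to 1000000 per library) in KO light libraries and 5.27, 10.1 and 10.4 CPM in KO dark libraries, against 13.7, 10.7 and 14.0 CPM in WT light libraries and 8.64, 8.20 and 8.34 CPM in WT dark libraries. The labels do not say which part of the gene was removed, so its counts do not check the genotype if they lie outside the removed part. Whether the libraries of a group came from mice collected on different days is not stated in the labels, and the spread behind each p-value may therefore be technical. In tissue RNA, fewer cells of a type and less RNA per cell cannot be told apart. Of the marker lists, no gene was at 0 in any library; the 10 SCN genes listed summed to 751 to 1171 CPM in the light-pulse libraries and 1240 to 2865 CPM in the Npas4 libraries.

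Levels are given per gene length, in the authors' RPKM. The stearoyl-CoA desaturase Scd2 was highest, with a median of 428 RPKM over the light-pulse libraries (348 to 504) and 323 RPKM over the Npas4 libraries (309 to 397). Scd1, its paralog, followed with 108 and 78.3 RPKM, and Hmgcs1, the HMG-CoA synthase that feeds the pathway, with 88.9 and 70.8 RPKM. The middle of the list was close together, Srebf2 at 30.8 and 46.1 RPKM, Cyp51 at 29.1 and 25.7 RPKM and Pmvk at 26.7 and 32.5 RPKM, with overlapping ranges among neighbours. At the low end stood the farnesyl diphosphate synthase Fdps with 1.42 RPKM (1.09 to 1.93) in the light-pulse libraries and 3.38 RPKM (2.93 to 3.92) in the Npas4 libraries. The isopentenyl diphosphate isomerase Idi1 had 0.251 RPKM (0.136 to 0.662) in the light-pulse libraries and 3.49 RPKM (2.91 to 3.79) in the Npas4 libraries. The tables were made separately, so no test was run between them. Reads of genes with near-identical copies elsewhere may have been split, and the files do not say how such reads were counted, so the levels of Idi1 and Fdps are uncertain.

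In the light-pulse experiment 4 genes of the list, Insig1, Cyp51, Pmvk and Fdft1, were called, each in 1 or 2 comparisons, and the median of the list stayed close to that of all genes. After 0.5 h of light 1 of 27, Insig1, was called at an adjusted p of 0.05 or less in edgeR's quasi-likelihood test, where 0.468% of the 14524 genes tested were called. After 1 h it was 1 of 27, Cyp51, where 1.27% of all genes were called. After 3 h it was 1 of 27, Pmvk, against 3.24% of all genes. These comparisons share the CT 17 dark libraries. After 6 h of light, set against darkness at CT 23, it was 1 of 27, Insig1, in the lower direction, against 1.41% of all genes. Between CT 23 dark and CT 17 dark 0 of 27 were called, against 0.269% of all genes; 4 of 27 had an unadjusted p under 0.05, and DESeq2 called 0. From 1 h to 3 h of light 1 of 27 was called, Fdft1, against 1.53% of all genes, and from 3 h to 6 h 0 of 27, against 0.633% of all genes, with 3 of 27 at an unadjusted p under 0.05 and 0 by DESeq2. The median log2 fold change of the list was 0.0011 at 0.5 h, 0.043 at 1 h and -0.0023 at 3 h, beside -0.0056, -0.0054 and -0.016 over all genes tested. At 1 h, 7 of 27 genes had both light libraries above all 4 dark libraries and 3 had both below, where the shares of all genes were 11.4% and 12.4%.

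**Figure D1:**
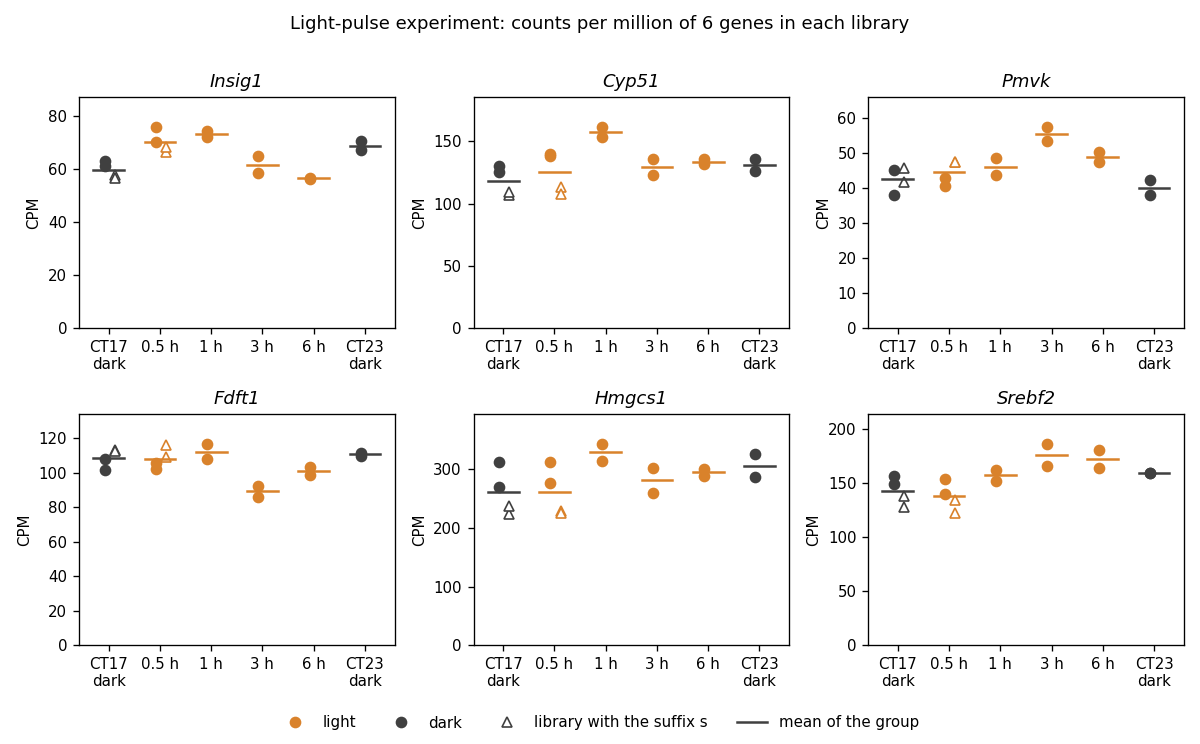
Normalised level in CPM (counts scaled to 1000000 per TMM-scaled library, y axis) of Insig1, Cyp51, Pmvk, Fdft1, Hmgcs1 and Srebf2 in every light-pulse library, by group from CT 17 dark over 0.5 h, 1 h, 3 h and 6 h of light to CT 23 dark. Orange points are light libraries, dark grey points dark ones, open triangles libraries with the suffix s, and bars are group means; for Cyp51 both 1 h light libraries (153 and 161 CPM) lie above the 4 CT 17 dark libraries (107 to 130 CPM).

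Of the SREBP system, Insig1, the sterol-regulated anchor that holds SCAP back, was the gene called. Insig1 had 75.9, 66.5, 70.2 and 68.4 CPM in the 0.5 h light libraries, against 61.4, 57.8, 63.3 and 56.9 CPM in the CT 17 dark libraries. All 4 light libraries were above all 4 dark libraries. The log2 fold change was 0.23 ± 0.05 (SE, n = 4 each; adjusted p = 0.0295, edgeR), and it was 0.23 both between the libraries without the suffix s and between those with it. At 1 h Insig1 had 74.6 and 72.1 CPM, again above all CT 17 dark libraries, with a log2 fold change of 0.24 that was not called (adjusted p = 0.0962, edgeR). At 3 h it had 64.9 and 58.5 CPM, 1 library above all CT 17 dark libraries and 1 within their range, with a log2 fold change of -0.01. After 6 h of light Insig1 had 56.5 and 56.7 CPM, against 67.4 and 70.7 CPM in the CT 23 dark libraries, a log2 fold change of -0.29 ± 0.07 (n = 2 each; adjusted p = 0.0465, edgeR). Both 6 h libraries lay below both CT 23 dark libraries, and these dark libraries lay above all 4 CT 17 dark libraries (56.9 to 63.3 CPM). These calls were narrow: the 0.5 h call was lost without any of 7 of the 8 libraries, with an adjusted p of up to 0.598 over the alternatives, and the 6 h call without any of its 4 libraries, with up to 0.355.

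Insig2, the second anchor, had 64.3 to 69.5 CPM after 0.5 h of light and 61.2 and 65.9 CPM after 1 h, against 61.3 to 65.7 CPM in CT 17 dark, and was not called in any comparison. Srebf2, which encodes the main activator of the pathway, had 154, 134, 140 and 123 CPM after 0.5 h, 152 and 162 CPM after 1 h and 166 and 186 CPM after 3 h of light, against 149, 128, 156 and 138 CPM in CT 17 dark. Of these, only the 3 h libraries were both above every CT 17 dark library, with a log2 fold change of 0.21 that was not called (adjusted p = 0.17, edgeR). Srebf1, the fatty-acid side of the pair, had 58.7 to 70.3 CPM after 0.5 h of light, against 57.0 to 85.8 CPM in CT 17 dark. At 0.5 h its groups overlapped, and the widest gap lay within the dark group, where the libraries with the suffix s were lower than those without it by a log2 difference of -0.41. After 6 h of light Srebf1, Srebf2 and Insig2 had both libraries above both CT 23 dark libraries, and none of them was called. They were among 7 of 27 genes above, beside 9 below, where the shares of all genes were 16.4% and 16.5%. Insig2 was also above every CT 17 dark library at 3 h. Scap, the escort of SREBP, had 70.2 to 76.8 CPM after 0.5 h of light, against 70.8 to 80.3 CPM in CT 17 dark, and its log2 fold changes over the comparisons of this experiment lay between -0.09 and 0.09.

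Among the 7 mevalonate genes only Pmvk, the phosphomevalonate kinase, was called. Pmvk had 57.2 and 53.2 CPM after 3 h of light, against 45.2, 45.5, 38.0 and 41.7 CPM in CT 17 dark. Both 3 h libraries were above all dark libraries. The log2 fold change was 0.44 ± 0.08 (n = 2 and 4; adjusted p = 0.0074, edgeR). It remained called in 13 of 16 alternatives and was lost when 1 of the 3 h libraries was left out (adjusted p = 0.0787). After 6 h of light Pmvk had 50.2 and 47.3 CPM, against 42.1 and 38.0 CPM in CT 23 dark, a log2 fold change of 0.28 that was not called (adjusted p = 0.226, edgeR). No dark library taken at the hour when the 3 h pulse ended, CT 20, was analysed here, so time of day and light cannot be told apart at 3 h.

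Hmgcs1, which makes HMG-CoA, had 315 and 342 CPM after 1 h of light, against 269, 223, 312 and 238 CPM in CT 17 dark. Both light libraries were above every dark library, yet the dark libraries differed among themselves by a log2 difference of -0.33 between those with and without the suffix s, and the log2 fold change of 0.17 was not called (adjusted p = 0.679, edgeR). Mvk, the mevalonate kinase, and Mvd, the decarboxylase after Pmvk, had log2 fold changes of 0.40 and 0.32 at 3 h, with both 3 h libraries above every dark library and adjusted p of 0.0725 and 0.311 (edgeR). Acat2, the thiolase that opens the route, had 18.9 and 26.5 CPM after 1 h, against 20.4 to 25.7 CPM in CT 17 dark, with overlapping groups. Idi1 had few reads in this table, with 16, 30, 33 and 37 raw counts after 0.5 h of light, against 16, 19, 7 and 23 raw counts in CT 17 dark, and was not called.

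From farnesyl diphosphate to lanosterol, Fdft1, the squalene synthase, was lower after 3 h than after 1 h of light. Fdft1 had 86.2 and 92.2 CPM after 3 h, against 108 and 117 CPM after 1 h. The log2 fold change was -0.33 ± 0.07 (n = 2 each; adjusted p = 0.0171, edgeR), and no library overlapped. In CT 17 dark Fdft1 had 108, 113, 102 and 112 CPM, so that both 3 h libraries were also below all of these, with a log2 fold change of -0.23 that was not called (adjusted p = 0.0604, edgeR). The call between 3 h and 1 h was made without only 1 of the 4 libraries left out, a 1 h library (adjusted p = 0.0434), and was lost without each of the other 3. Sqle, the squalene epoxidase and a slow step of the pathway, had 95.1 and 108 CPM after 3 h and 117 and 116 CPM after 1 h, against 106 to 113 CPM in CT 17 dark. Lss, the lanosterol synthase, had 58.4 and 59.3 CPM after 1 h and 53.5 to 60.4 CPM after 0.5 h, against 61.0 to 64.5 CPM in CT 17 dark, below every dark library, with log2 fold changes of -0.09 and -0.12 that were not called.

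From lanosterol to cholesterol, Cyp51, the lanosterol demethylase, rose at 1 h. Cyp51 had 153 and 161 CPM after 1 h of light, against 125, 107, 130 and 109 CPM in CT 17 dark. Both light libraries were above all 4 dark libraries, and the log2 fold change was 0.28 ± 0.06 (n = 2 and 4; adjusted p = 0.0436, edgeR). At 0.5 h it had 139, 114, 140 and 108 CPM and at 3 h 123 and 136 CPM, both ranges overlapping CT 17 dark. The 1 h call was lost without any of the 6 libraries and under DESeq2's size factors, with adjusted p from 0.00192 to 0.761 over 16 alternatives. Msmo1, the sterol methyl oxidase that acts after Cyp51, had 181 and 180 CPM after 1 h and 180 and 187 CPM after 3 h, against 164, 145, 147 and 146 CPM in CT 17 dark. No library of Msmo1 overlapped, and the log2 fold changes of 0.21 and 0.24 were not called (adjusted p = 0.247 and 0.072, edgeR). Tm7sf2, a sterol reductase, had 12.0 and 10.7 CPM after 1 h, against 8.53 to 10.8 CPM in CT 17 dark, with overlap. None of the other 5 enzymes of this stretch, Nsdhl, Hsd17b7, Ebp, Sc5d and Dhcr7, was called in any comparison.

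Of the transport and fatty acid genes none was called in the light-pulse experiment. Stard4, a carrier of sterol between membranes, had 44.1 and 48.2 CPM after 6 h of light, against 53.5 and 57.1 CPM in CT 23 dark. Both light libraries were lower, in the direction of Insig1 in the same comparison, and the log2 fold change of -0.26 was not called (adjusted p = 0.103, edgeR). For both genes the CT 23 dark libraries lay above all CT 17 dark libraries, as for 7 of 27 genes, beside 1 below. The shares of all genes were 11.1% and 12.7%. Without the suffix term these dark differences were 0.31 for Stard4 and 0.21 for Insig1 (adjusted p = 0.128 and 0.302, edgeR). Fasn, the fatty acid synthase, had 266 and 304 CPM after 1 h of light, against 251, 188, 324 and 203 CPM in CT 17 dark. For Fasn the dark libraries with the suffix s were lower than those without by a log2 difference of -0.56, and the groups overlapped. Scd1 and Scd2 had log2 fold changes of -0.24 and -0.19 at 1 h (adjusted p = 0.297 and 0.433, edgeR).

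The label batch bears on the 1 h and 3 h values. All 1 h, 3 h and 6 h libraries belong to label batch 2 and have no suffix, whereas the CT 17 dark libraries without the suffix are of batch 1 and those with it of batch 2. With a label batch term in place of the suffix term, 6 of 27 genes were called at 1 h, against 8.39% of all genes. All 6 were higher: Cyp51 (log2 fold change 0.53, adjusted p = 0.00222, edgeR), Hmgcs1 (0.47), Insig1 (0.34), Msmo1 (0.31), Sc5d (0.25) and Stard4 (0.26). At 3 h it was 7 of 27, against 11.5% of all genes: Fasn (0.67), Hsd17b7 (0.39), Srebf2 (0.38), Msmo1 (0.34), Pmvk (0.34) and Sc5d (0.25) higher and Fdft1 (-0.33) lower. With the same term the 0.5 h and 6 h calls of Insig1 were lost. With a term of 3 levels for batch and suffix together, Insig1 at 0.5 h (adjusted p = 0.0364, edgeR) and Fdft1 from 1 h to 3 h (0.0226) remained called, and Cyp51 at 1 h had a log2 fold change of 0.17 (adjusted p = 0.761) and Pmvk at 3 h 0.59 (adjusted p = 0.16). That term rests on the 2 CT 23 dark libraries, which differ in batch, so batch and light cannot be told apart beyond them at 1 h and 3 h. Without the libraries that carry the suffix s, no gene of the list was called in any comparison.

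**Figure D2:**
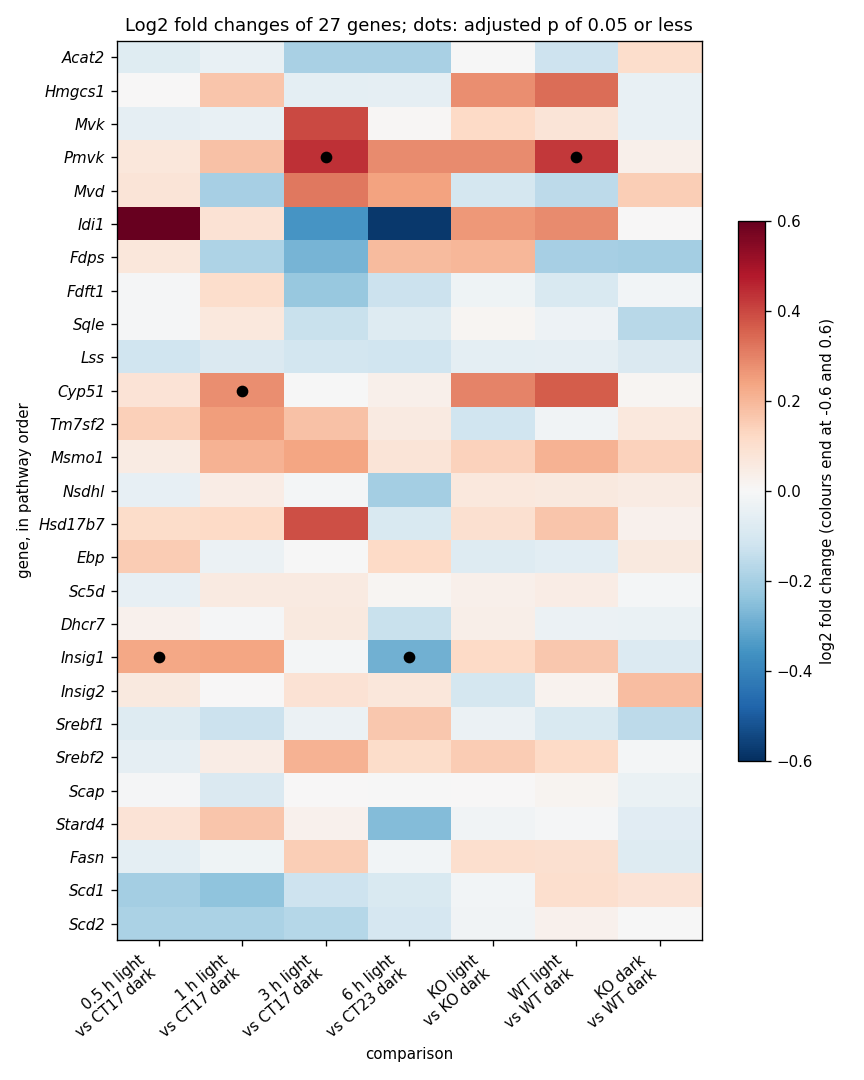
Log2 fold change (colour; the scale ends at 0.6 in either direction) of the 27 genes (rows, by step of the pathway) in 7 comparisons (columns): the 4 durations of light with darkness, KO light with KO dark, WT light with WT dark, and KO dark with WT dark. Dots mark an adjusted p of 0.05 or less in edgeR without pairing; they stand at Insig1 (0.5 h and 6 h), Cyp51 (1 h) and Pmvk (3 h and WT light), and most cells are pale.

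Fibroblasts are cells of the meninges, which lie beside the SCN, and 3 libraries had high sums of 6 fibroblast genes: 2 of the 0.5 h light libraries (778 and 377 CPM) and 1 CT 17 dark library (272 CPM), against 73.3 to 106 CPM in the other light-pulse libraries. Without these 3 libraries Insig1 at 0.5 h had a log2 fold change of 0.24 (adjusted p = 0.555, edgeR) and Pmvk at 3 h 0.41 (adjusted p = 0.0265). Oligodendrocytes make much cholesterol for myelin. The 10 listed genes summed to 4097 and 6013 CPM after 1 h of light, against 7552 to 8841 CPM in CT 17 dark, and 10 of 10 had a lower value with a median log2 fold change of -0.52, though 0 of 10 were called (9 of 10 had an unadjusted p under 0.05). At 3 h the median was -0.25. The 10 astrocyte genes summed to 5788 and 6275 CPM after 1 h, against 4950 to 7022 CPM in CT 17 dark, with a median log2 fold change of -0.16. With a replicate block, Gfap was called lower at 1 h (log2 fold change -0.61, adjusted p = 0.0221, edgeR). Aldoc (0.01), Fabp7 (0.01) and Slc1a3 (0.02) were not called. At 3 h Aqp4 (-0.35, adjusted p = 0.00887, edgeR) and Gja1 (-0.34, adjusted p = 0.014) were called lower, and Fabp7 (0.23) was not called. At 6 h, against CT 23 dark, Gfap was called higher (0.67, adjusted p = 0.0158, edgeR), and Gja1 (-0.19) was not called. Without the block, Th of the neighbouring hypothalamus was called at 3 h (0.60, adjusted p = 0.0404, edgeR). At 6 h Th (0.85, adjusted p = 0.0132, edgeR) and Gal (0.91, adjusted p = 0.0284) were called. Pomc (-1.41 at 3 h, 0.03 at 6 h) was not called. The microglial P2ry12 was called lower at 3 h (-0.43, adjusted p = 0.00385, edgeR), and Tmem119 (0.10) was not called. The part of these cells in the values of Cyp51, Scd1 and Scd2 at 1 h, Pmvk at 3 h and Insig1 at 6 h was not tested.

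In the Npas4 experiment the response to 1 h of light was measured once more, in KO and in WT mice. Without pairing, 0 of 27 genes were called in KO light against KO dark, where 1.56% of 15001 genes were called (4 of 27 at an unadjusted p under 0.05, 0 by DESeq2), and 1 of 27, Pmvk, in WT light against WT dark, where 2.57% of all genes were called. Libraries with the same number deviated together in both contrasts, and with the replicate number as a block 3 of 27 were called in KO mice, against 3.01% of all genes, and 5 of 27 in WT mice, against 5.03%. The 3 genes in KO mice, Cyp51, Hmgcs1 and Pmvk, are among the 5 in WT mice, which add Idi1 and Msmo1, and all were higher after light. The median log2 fold change of the list without pairing was 0.032 in KO mice and 0.027 in WT mice, beside -0.010 and -0.012 over all genes.

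Pmvk had 55.2, 63.9 and 66.3 CPM in KO light libraries against 49.5, 48.1 and 54.9 CPM in KO dark libraries, and 70.2, 59.8 and 70.2 CPM in WT light libraries against 49.8, 45.8 and 53.6 CPM in WT dark libraries. No light library overlapped a dark one in either genotype. The log2 fold change was 0.28 ± 0.09 in KO mice (adjusted p = 0.278, edgeR) and 0.42 ± 0.09 in WT mice (n = 3 each; adjusted p = 0.0233, edgeR), and with the block 0.28 ± 0.07 (adjusted p = 0.0341) and 0.43 ± 0.06 (adjusted p = 0.00132). The WT call without pairing stayed in 7 of 11 alternatives and was lost without any of 4 of the 6 libraries. In WT mice it was the same gene that was called after 3 h of light in the other experiment, where the 1 h value was a log2 fold change of 0.18 and was not called.

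Hmgcs1 had 220, 295 and 228 CPM in KO light libraries against 176, 247 and 189 CPM in KO dark libraries, and 262, 306 and 229 CPM in WT light libraries against 195, 250 and 187 CPM in WT dark libraries. The groups overlapped, because the libraries numbered 2 were high in all 4 groups, while within each number the light library was above the dark one. With the block the log2 fold change was 0.28 ± 0.05 in KO mice (adjusted p = 0.00786, edgeR) and 0.34 ± 0.05 in WT mice (adjusted p = 0.00124). Without it the same log2 fold changes, 0.28 and 0.33, had adjusted p of 0.81 and 0.563.

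Cyp51 had 115, 134 and 124 CPM in KO light libraries against 91.3, 114 and 97.5 CPM in KO dark libraries, and 132, 128 and 128 CPM in WT light libraries against 92.8, 114 and 93.9 CPM in WT dark libraries. Every light library was above every dark library of its genotype. The blocked log2 fold change was 0.30 ± 0.06 in KO mice (adjusted p = 0.0154, edgeR) and 0.37 ± 0.06 in WT mice (adjusted p = 0.00212), and without the block the adjusted p were 0.28 and 0.0773. Idi1 had 12.8, 13.5 and 12.7 CPM in KO light libraries against 10.5, 10.5 and 11.6 CPM in KO dark libraries, and 12.9, 13.5 and 13.1 CPM in WT light libraries against 11.1, 10.9 and 10.5 CPM in WT dark libraries. The 6 light libraries were all above the 6 dark ones, and the blocked log2 fold change was 0.26 ± 0.07 in KO mice (adjusted p = 0.0786, not called) and 0.28 ± 0.07 in WT mice (adjusted p = 0.0341). Msmo1 had 139, 153 and 161 CPM in KO light libraries against 129, 142 and 140 CPM in KO dark libraries, and 147, 141 and 143 CPM in WT light libraries against 118, 128 and 127 CPM in WT dark libraries, with a blocked log2 fold change of 0.14 ± 0.05 in KO mice (adjusted p = 0.173, not called) and 0.21 ± 0.05 in WT mice (adjusted p = 0.0195).

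**Figure D3:**
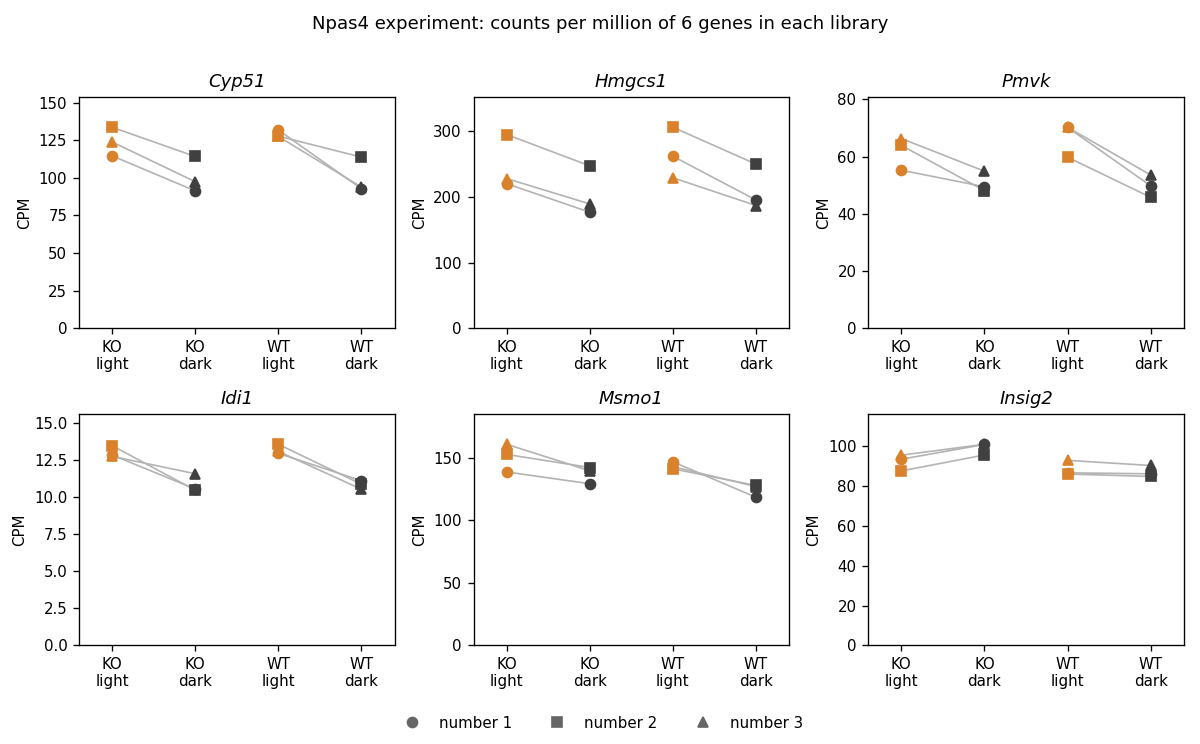
Normalised level in CPM (y axis) of Cyp51, Hmgcs1, Pmvk, Idi1, Msmo1 and Insig2 in each of the 12 libraries of the Npas4 experiment, in the order KO light, KO dark, WT light, WT dark (x axis); grey lines join libraries of the same number, shown as circles, squares and triangles. For Hmgcs1 the libraries numbered 2 stand highest in all 4 groups (247 to 306 CPM), and each number's light library stands above its dark library in both genotypes.

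Insig1, the gene called at 0.5 h of light, had 90.5, 85.8 and 95.2 CPM in KO light libraries against 80.0, 84.0 and 85.9 CPM in KO dark libraries, and 103, 91.0 and 102 CPM in WT light libraries against 86.2, 87.8 and 90.3 CPM in WT dark libraries. The WT groups did not overlap and the KO groups did, and the log2 fold changes of 0.12 and 0.16 were not called (adjusted p = 0.723 and 0.338, edgeR). Srebf2 had 231, 264 and 230 CPM in KO light libraries against 192, 249 and 211 CPM in KO dark libraries, and 251, 234 and 229 CPM in WT light libraries against 209, 242 and 206 CPM in WT dark libraries, with overlap in both. Srebf1 and Scap also overlapped between light and dark in both genotypes, at 88.0 to 122 CPM and 95.0 to 105 CPM over all 12 libraries. Of the genes given for contrast, Acat2 (21.6 to 29.0 CPM), Sqle (98.9 to 137 CPM), Tm7sf2 (16.01 to 20.3 CPM), Stard4 (48.6 to 56.2 CPM) and Fasn (237 to 335 CPM) were not called in any of the comparisons.

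The difference between the KO and the WT response to light was called for 0 of 27 genes, where 0.0133% of all genes were called (1 of 27 at an unadjusted p under 0.05, 0 by DESeq2). Cyp51, Hmgcs1 and Pmvk had differences in log2 fold change, KO minus WT, of -0.07 ± 0.14, -0.06 ± 0.23 and -0.14 ± 0.13, and Idi1 and Msmo1, called with the block in WT mice and not in KO mice, of -0.023 ± 0.098 and -0.07 ± 0.09, so those calls do not show a difference between the genotypes. The gene at the low p was Fdps, the enzyme that joins isoprene units into farnesyl diphosphate. Fdps had 14.08, 17.1 and 14.7 CPM in KO light libraries against 11.9, 13.9 and 14.06 CPM in KO dark libraries, and 13.9, 13.5 and 12.7 CPM in WT light libraries against 14.97, 15.5 and 15.5 CPM in WT dark libraries. In KO mice the light libraries were above the dark ones, the lowest of them only just, and in WT mice they were below them. The log2 fold changes were 0.20 and -0.20, and their difference of 0.40 ± 0.13 had an unadjusted p of 0.00771 and an adjusted p of 1 (edgeR).

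Between KO and WT mice in darkness 0 of 27 genes were called, against 0.753% of all genes (2 of 27 at an unadjusted p under 0.05, 0 by DESeq2), and in light 0 of 27, against 0.467% of all genes (3 of 27 and 0 by DESeq2). With the replicate block 1 of 27 was called in darkness, Insig2, against 3.09% of all genes. Insig2 had 101, 95.6 and 101 CPM in KO dark libraries, against 86.2, 84.8 and 90.3 CPM in WT dark libraries. Every KO dark library was above every WT dark library, and the log2 fold change with the block was 0.19 ± 0.03 (adjusted p = 0.0115, edgeR), against an adjusted p of 0.225 without it. In light Insig2 had 93.5, 87.6 and 95.5 CPM in KO libraries, against 86.7, 86.1 and 92.9 CPM in WT libraries, with overlap and a log2 fold change of 0.06. Acat2 had 27.8, 26.7 and 26.4 CPM in KO light libraries, against 22.8, 24.8 and 21.6 CPM in WT light libraries, without overlap and with a log2 fold change of 0.22 that was not called (adjusted p = 0.355, edgeR). The 10 oligodendrocyte genes summed to 6105 to 6951 CPM in KO dark libraries, against 4712 to 7014 CPM in WT dark libraries, and 10 of 10 had a higher value with a median log2 fold change of 0.25 and 0 called (4 of 10 at an unadjusted p under 0.05). The 6 fibroblast genes summed to 216, 96.1 and 57.0 CPM in KO dark libraries, against 79.1, 64.4 and 71.8 CPM in WT dark libraries, and 6 of 6 had a higher value, with a median log2 fold change of 0.76 and 0 called (4 of 6 at an unadjusted p under 0.05, edgeR). In KO light libraries they summed to 56.9 to 65.8 CPM, and 6 of 6 had a lower value than in KO dark, with a median log2 fold change of -0.91 and 0 called (4 of 6 at an unadjusted p under 0.05). With the replicate block, 2 astrocyte genes were called between KO and WT mice in darkness, in opposite directions. They were Fabp7 (log2 fold change 0.98, adjusted p = 0.00355, edgeR) and Slc1a3 (-0.18, adjusted p = 0.0264). The part of these cell types in the value of Insig2, and of fibroblasts in the KO response to light, was not tested.

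Of the genes outside the list that SREBP is known to control, Elovl6, a fatty acid elongase, had 128.5 and 126.1 CPM after 3 h of light, against 100.8, 100.4, 103.4 and 103.4 CPM in CT 17 dark. Both 3 h libraries were above all dark libraries, and the log2 fold change was 0.31 ± 0.06 (adjusted p = 0.00837, edgeR). In WT mice Elovl5, another elongase, and Elovl6 were called after light, with log2 fold changes of 0.43 (adjusted p = 0.0109, edgeR) and 0.26 (adjusted p = 0.0463). In KO mice Elovl5 had a log2 fold change of 0.29, called with the block (adjusted p = 0.00685) and not without it (0.182), and Elovl6 was called in neither. The differences in response, KO minus WT, were -0.15 ± 0.12 for Elovl5 and -0.12 ± 0.09 for Elovl6 and were not called (adjusted p = 1 for both, edgeR). Of 6 genes that cut or degrade SREBP regulators and of 13 or 14 tested genes of sterol efflux, storage and LXR, edgeR called 0 in each of the 12 comparisons without the block, with 0 to 3 of either list at an unadjusted p under 0.05 in each.

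At the starts of the genes, ChIP-seq peaks of H3K4me3, a mark of active promoters, and of H3K27ac, found at active enhancers as well as promoters, were counted within 1000 bases of any RefSeq start. Peak positions and their fold over background are the authors'. There was 1 list for each mark and lighting, so the lists are described without a test. H3K4me3 peaks were at 21 of 21 genes with an annotated start both in light and in darkness, where 65.2% and 66.3% of 16073 genes had one. H3K27ac peaks were at 18 of 21 in light, or 85.7% against 47.8% of all genes, and at 19 of 21 in darkness, or 90.5% against 48.6%. The genes without an H3K27ac peak were Nsdhl and Scap in both and Hsd17b7 in light. The list and all genes were not matched for RNA level.

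At Insig1 the highest H3K27ac peak had a fold of 8.99 in light and 11.0 in darkness, and the H3K4me3 peak 42.5 and 44.5. At Cyp51 the H3K27ac folds were 7.94 in light and 11.4 in darkness, and at Hmgcs1 6.27 and 8.49. At Srebf2 they were 7.24 in light and 13.8 in darkness, and at Pmvk 9.66 and 9.62. Folds in the separate lists depend on each library's background, so whether the mark changed between light and darkness cannot be told from them. The other 6 genes of the list had no annotated start in the table and were looked up by either end of the gene. Scd2, the gene with the highest RNA level, had H3K27ac folds of 13.3 in light and 16.9 in darkness. Fdft1 had no peak near either end in any of the 4 lists, although its median level was 37.1 RPKM in the light-pulse and 28.3 RPKM in the Npas4 libraries. A start away from the ends used would be missed, so these lists do not show that its promoter lacks the marks.

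**Figure D4:**
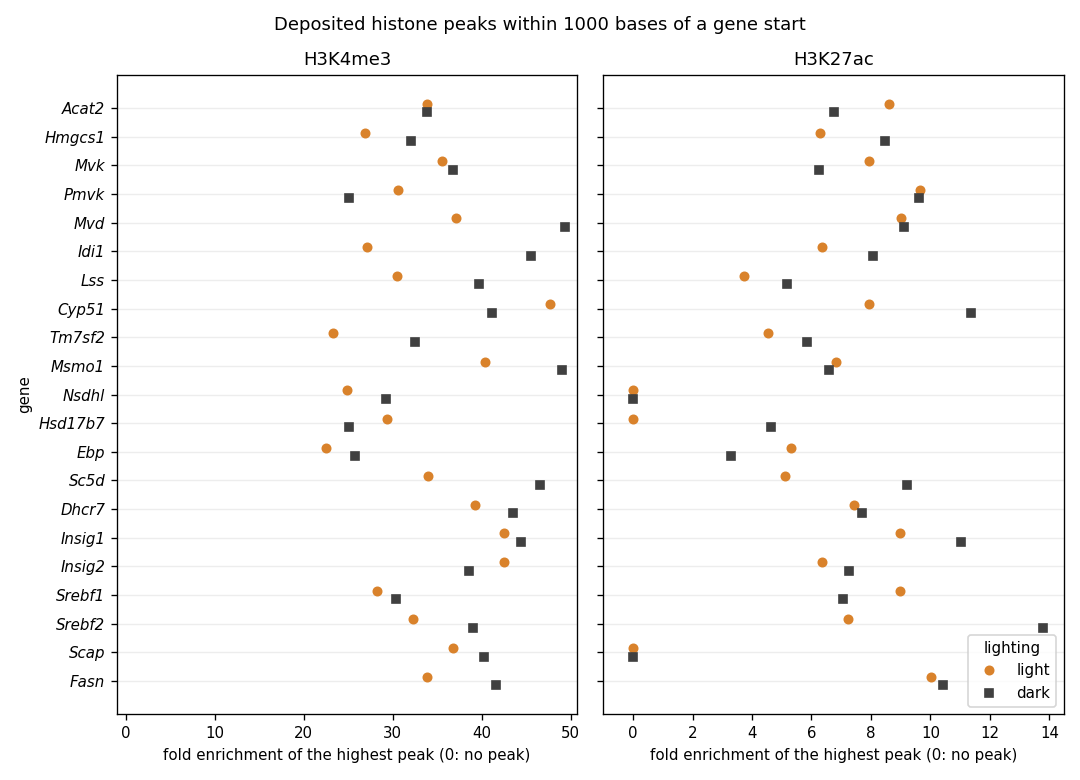
Authors' fold over background (x axis) of the highest H3K4me3 and H3K27ac peak within 1000 bases of a start of each of the 21 genes (y axis), in light and in darkness; 0 means no peak in the list. All 21 genes have an H3K4me3 peak in both lists, and Nsdhl and Scap have no H3K27ac peak in either.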

How the data were processed

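RNA libraries were made with the Dynabeads mRNA DIRECT Micro and TruSeq kits, per the labels' protocols. Counts per gene are the authors' whole-number counts as deposited, in 1 table for each experiment; the counter, the use of strand and how reads with several map positions were treated are steps not given in the sources used here. RPKM values are the authors' deposited values and equal each count divided by gene length and library total. Peak lists give the authors' fold over background as a ratio and their −log10 q-value, per the file headers. The submitters' processing notes name, with no role or order, STAR 2.7.1a and 2.5.2b, HTSeq 0.9.1, featureCounts 1.6.2, BWA 0.7.16a, MACS2 2.1.1, HOMER 4.9.1, bedtools 2.25.0 and build mm10, and other tools for the single-nucleus samples, which were not used here.

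From the counts, edgeR 4.0.16 in R 4.3.3 was run on all genes kept by its expression filter (14524 in the light-pulse table and 15001 in the Npas4 table), with TMM scaling and the quasi-likelihood test. Benjamini-Hochberg adjustment ran over every gene of a comparison, and calls were made at an adjusted value of 0.05 or less. The light-pulse model held the group and the suffix s, and the Npas4 model held the 4 groups. CPM are counts scaled to 1000000 per TMM-scaled library, and a ± after a log2 fold change is its standard error. The fits were tested on simulated data. No 2 libraries of a group agreed within sampling noise (chi-square per degree of freedom at least 4.88).

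Libraries of the same number in the Npas4 experiment were checked for shared deviations from their group means over genes. The correlation was 0.2 to 0.416 between WT light and WT dark, 0.248 to 0.648 between KO light and KO dark and 0.339 to 0.696 between KO dark and WT dark, so that numbers were taken to pair the libraries in these comparisons. This pairing comes from the data and not from the labels. Between KO light and WT light the lowest was 0.0158, and the 36 correlations between different numbers lay between -0.457 and 0.16.

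The genes named are those called in at least 1 comparison, the regulators Srebf1, Srebf2, Scap, Insig1 and Insig2, and the first uncalled enzyme of each group; other genes named beyond these (Hmgcs1, Idi1, Msmo1, Fdps, Mvk, Mvd, Lss, Scd1 and Scd2) were chosen after their values were seen. The list, the other lists and the tests were chosen with earlier results of these data known. Promoters are RefSeq sequences of GRCm38.p6. Alternatives were the label batch, a term of 3 levels, no term, a replicate block, DESeq2 1.42.0, its size factors, no expression filter, and libraries left out or summed. A result on 1 gene of the other lists is not reported here.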

Additional observations from a re-analysis of the deposited data

Results flagged for a closer look

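Within groups of 4 libraries, 54 combinations of gene and group were tested for a library far from the other 3, and 2 passed Dixon's critical value of 0.829, where chance at 1 in 20 gives 2.7. Idi1 had 2.32 CPM in 1 of the 0.5 h light libraries, replicate 2 without the suffix s, against 1.06 to 1.22 CPM in the other 3. The gap took 0.870 of the range of the group. It is the library with the highest sum of fibroblast genes, 778 CPM, and the part of that in the value was not tested. Msmo1 had 164 CPM in CT 17 dark replicate 1, against 145 to 147 CPM in the other 3 dark libraries, a gap of 0.897 of the range. That library belongs to label batch 1 and has no suffix.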

How the results depend on the processing

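Counts of called genes, out of 27, moved as follows. At 0.5 h the count of 1 became 0 with the label batch term, with no term, without the suffix s libraries, with the libraries of a number summed and without the 3 libraries high in fibroblast genes. At 1 h the count of 1 became 6 with the label batch and 4 with summing, and 0 with the 3-level term, no term, DESeq2 size factors, no filter, and without the suffix s or the fibroblast-high libraries. At 3 h it became 7 with the label batch, 6 with summing, 3 with no term, the replicate block or DESeq2, and 0 with the 3-level term or without suffix s libraries. At 6 h it became 2 with the replicate block and 0 with the label batch, the 3-level term, no term, summing, no filter, and without the suffix s or the fibroblast-high libraries. From 1 h to 3 h it became 2 with the block or DESeq2 and 0 with no term or without the suffix s libraries. CT 23 against CT 17 gave 3 with summing. Light against dark gave in KO mice 3 with the block and 1 without the libraries numbered 2, and in WT mice 5 with the block, 3 without the libraries numbered 2 and 3 with DESeq2. KO dark against WT dark gave 1 with the block; KO light against WT light gave 0 with it. Leaving out 1 library at a time gave counts of 0 to 1 at 0.5 h, at 3 h, from 1 h to 3 h and in WT mice, and 0 to 0 in each of the other 8 comparisons. H3K27ac peaks with a −log10 q of 10 or more were at 11 genes in light and 12 in darkness, against 18 and 19 without that limit.

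None of the 6 called values of single genes changed direction in its alternatives. Values that were not called did: at 1 h the log2 fold change was 0.094 for Lss and -0.018 for Hmgcs1 with the 3-level term, and 0.10 for Scd2 with the label batch term, against -0.09, 0.17 and -0.19. In the light-pulse experiment same-numbered libraries correlated between -0.244 and 0.59, so its numbers were not taken as pairs. Summing libraries, leaving out those numbered 2 and leaving out those high in fibroblast genes were added after the data were seen. The groups of 2 libraries, and 12477382 to 15369985 counts in most light-pulse libraries, limit what could be called. The cause of these moves was not tested.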
